A study of Mus musculus with 6 samples.

Results

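The genes described here mark position along the mouse small intestine, from the duodenum at the stomach end to the ileum at the colon end. The 10 members were taken by gene symbol from a gene expression table of 55331 genes, and all 10 were present and tested by the authors. They are Pdx1, Gata4, Onecut2 and Cybrd1 of the proximal end, Fabp6 and Slc10a2 of the distal end, and Gata6, Cdx1, Cdx2 and Osr2, which were assigned to neither end. Osr2 was moved there from the proximal end after the values were seen. The members were chosen by name, with the FPKM difference between the groups already known, so their levels are a description and the calls on them support nothing further.

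The libraries came from polyA RNA of small intestinal crypt cells of C57BL/6 mice aged 60 days, with 3 WT and 3 PTBP1_KO libraries. WT mice had the genotype Ptbp1f/f, with no Cre, and PTBP1_KO mice had Ptbp1f/f;Vil-creER+/-, in which villin regulatory sequence directs a tamoxifen-dependent Cre to intestinal epithelium. Both groups were given tamoxifen at 100 mg/kg on consecutive days, and crypt cells were taken 20 h after the last injection. No group carried Cre without floxed Ptbp1, so Cre activity and loss of Ptbp1 cannot be told apart. The labels name the small intestine but no segment of it, so unequal sampling of segments and a difference by genotype cannot be told apart. They also do not say that each library came from its own mouse, so the authors' p-values may measure technical spread. PTBP1 is an RNA-binding protein that controls splicing of many transcripts, and the comparison asks how its loss affects crypt cells. Ptbp1 itself stood at 230.0 FPKM in WT against 123 in PTBP1_KO.

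The identity of each stretch of the small intestine is held by transcription factors that remain active in crypt cells throughout life. GATA4 maintains the duodenal and jejunal programme and holds back ileal bile acid genes, PDX1 marks the duodenum, and the CDX factors keep the epithelium intestinal. The segments differ in what they absorb, with iron taken up mainly in the duodenum and bile acids recovered in the ileum.

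Levels are given as FPKM, fragments scaled to transcript length and to library size, which allows comparison between genes because of the scaling to length. The table holds 1 value per group and no value per library, so no spread, no overlap between libraries and no order beyond error could be assessed. Each gene also has a log2 fold change, a p-value and an adjusted p-value (q) that the authors computed with Cuffdiff. In bulk RNA of this kind, fewer cells of a type and less RNA per cell cannot be told apart.

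At q below 0.05 in the authors' deposited table, 2 of the 10 members were called, Pdx1 lower and Slc10a2 higher in PTBP1_KO. Over all 15460 tested genes 0.537% were called, with 0.388% higher and 0.149% lower. An unadjusted p below 0.05 was listed for 3 members, with Onecut2 as the third, and for 4.35% of all tested genes. Because this contrast was known when the members were chosen, nothing is read from these counts. On the log2((PTBP1_KO + 1)/(WT + 1)) scale, 3 of 4 proximal members were lower, with a median of -0.32, and 2 of 2 distal members were higher, with a median of 0.41. Of all 15460 tested genes, 7005 were lower and 8455 higher. With Osr2 kept among the proximal members, as first listed, the proximal median was -0.25. The members of neither end had a median of -0.03, against 0.02 over all tested genes.

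**Figure D1:**
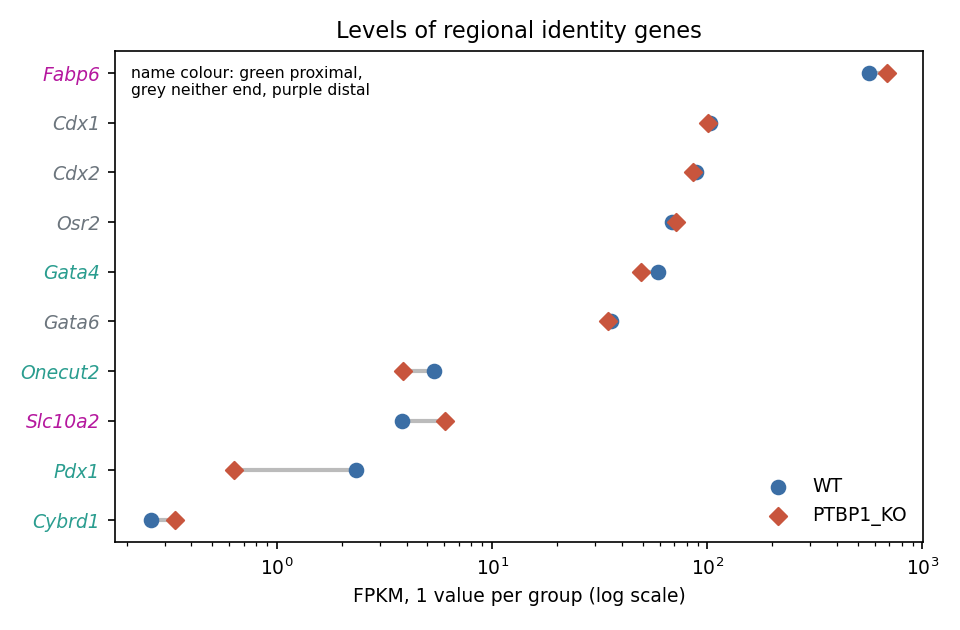
FPKM of the 10 members in WT (circles) and PTBP1_KO (diamonds), 1 value per group, on a log scale and ordered by the WT level. Pdx1 moves furthest to the left, from 2.32 to 0.629 FPKM, and Slc10a2 furthest to the right, from 3.82 to 6.06 FPKM, while Gata6, Cdx1, Cdx2 and Osr2 nearly overlie.

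Pdx1, the homeobox factor of duodenum and pancreas, had 2.32 FPKM in WT against 0.629 in PTBP1_KO. PTBP1_KO thus held 27.1% of the WT level, with a log2 fold change of -1.88 and q = 0.0125 in the authors' deposited table. Only 14 of the 15460 tested genes had a lower log2((PTBP1_KO + 1)/(WT + 1)) than Pdx1. The level was modest from the outset, since 31.3% of tested genes lay below Pdx1 in WT. Pdx1 (ENSMUSG00000029644.7) lies on chromosome 5 at 147269959 to 147275848, plus strand, in mm10. Plut, an antisense transcript on the minus strand, overlaps it over 1563 bases. Plut stood at 1.74 FPKM in WT against 0.400 in PTBP1_KO, with a log2 fold change of -2.12 and q = 0.101 in the authors' deposited table. The library kit keeps strand, but whether the counting used it is not given in the sources used here, so reads of this pair may not be separable.

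Cdx2 is the nearest homeobox neighbour of Pdx1, with 24956 bases between the ends of these 2 genes. It had 88.6 FPKM in WT against 85.4 in PTBP1_KO, a log2 fold change of -0.05 with p = 0.716 in the authors' deposited table. The Cdx2 level was therefore 38.2 times that of Pdx1 in WT and 136 times in PTBP1_KO. Relative to WT, Cdx2 thus differed much less than Pdx1, with 96.3% against 27.1% of the WT level in PTBP1_KO. In FPKM the difference was larger at Cdx2, -3.24 against -1.69.

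Onecut2 (chromosome 18, 64340020 to 64400987, plus strand), a homeobox factor of the proximal intestine, had 5.37 FPKM in WT against 3.84 in PTBP1_KO, which is 71.5% of the WT level. The authors' deposited table listed -0.48 for Onecut2 on the log2 scale, at p = 0.00135 and q = 0.156, so it was not called. Gata4 (chromosome 14, 63198922 to 63271692, minus strand), the zinc-finger factor that maintains the jejunal programme, had 58.7 FPKM in WT against 49.3 in PTBP1_KO, which is 84.0% of the WT level. The authors' deposited table gave -0.25 as its log2 fold change, with p = 0.120. Among tested genes 312 had a lower log2((PTBP1_KO + 1)/(WT + 1)) than Onecut2, and 945 had a lower one than Gata4. The 3 proximal factors were thus listed lower together, and Pdx1 alone passed the threshold.

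Cybrd1, the brush-border reductase that prepares dietary iron for uptake in the duodenum, had the lowest level of the members. It stood at 0.260 FPKM in WT against 0.334 in PTBP1_KO, with a log2 fold change of 0.36 and p = 0.290 in the authors' deposited table. Only 5.87% of tested genes lay below it in WT, so a fold change at this level rests on little RNA. Cybrd1 was the 1 proximal member listed higher.

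Gata6, the GATA factor that acts along the whole small intestine, had 35.7 FPKM in WT against 34.7 in PTBP1_KO. On chromosome 18 (11052064 to 11085635, plus strand) it shares 504 bases with 1010001N08Rik on the other strand, which had 13.4 and 12.8 FPKM. The ratio of Gata4 to Gata6 was 1.64 in WT and 1.42 in PTBP1_KO. Cdx1, which with Cdx2 maintains intestinal identity, had 103 FPKM in WT against 101 in PTBP1_KO, and the ratio of Cdx1 to Cdx2 was 1.16 and 1.18. Osr2, a zinc-finger factor related to odd-skipped of flies, had 68.5 FPKM in WT against 71.4 in PTBP1_KO. The PTBP1_KO levels of these genes and Cdx2 lay between 96.3% and 104% of WT, and none was called.

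Slc10a2 (chromosome 8, 5083219 to 5105351, minus strand) encodes the apical sodium-dependent transporter that brings bile acids into ileal enterocytes. It had 3.82 FPKM in WT against 6.06 in PTBP1_KO, which is 158% of the WT level. The authors' deposited table gave a log2 fold change of 0.66 with q = 0.0125. Of the tested genes, 189 had a higher log2((PTBP1_KO + 1)/(WT + 1)). Fabp6 (chromosome 11, 43596049 to 43601540, minus strand), the ileal protein that binds bile acids inside the cell, had 567 FPKM in WT against 682 in PTBP1_KO. This is 120.3% of the WT level, with a log2 fold change of 0.27 and p = 0.0815 in the authors' deposited table, and Fabp6 was not called. Fabp6 exceeded 98.9% of tested genes in WT, and its level was 148 times that of Slc10a2 in WT and 112 times in PTBP1_KO.

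**Figure D2:**
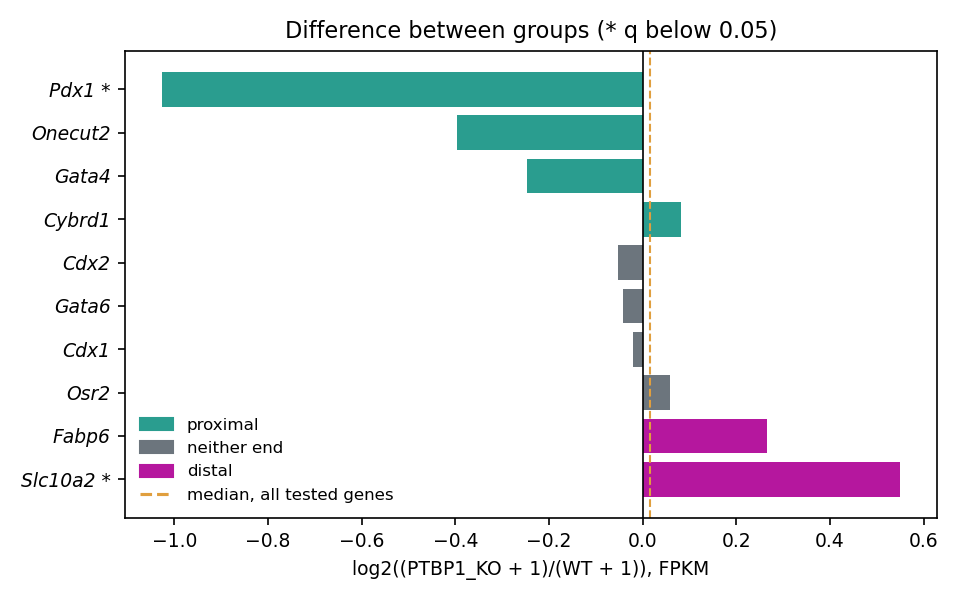
log2((PTBP1_KO + 1)/(WT + 1)) of FPKM for the 10 members, coloured by region, with an asterisk at q below 0.05 in the authors' deposited table and a dashed line at the median of all tested genes (0.02). Bars run from -1.03 for Pdx1 to 0.55 for Slc10a2, and the members of neither end stay between -0.05 and 0.06.

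In both groups the order of levels began with Fabp6, Cdx1, Cdx2, Osr2, Gata4 and Gata6. Onecut2, Slc10a2, Pdx1 and Cybrd1 followed in WT, whereas in PTBP1_KO Slc10a2 stood above Onecut2. Without values per library it cannot be said which neighbours in this order differed beyond their spread. Gata4 exceeded Slc10a2 by 15.3 times in WT and by 8.14 times in PTBP1_KO.

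The sequence ahead of the transcription start is shown for Pdx1, Slc10a2 and Fabp6, because Pdx1 and Slc10a2 were called and Fabp6 shares the bile acid pathway with Slc10a2. Each comes from the 250 bases before the RefSeq start on GRCm38.p6, written 5′ to 3′ along the gene, with capitals at matches to a CDX-type motif. GENCODE M21 starts Pdx1 138 bases and Slc10a2 64 bases further upstream than RefSeq, and only the 112 and 186 bases ahead of the GENCODE start are shown for them. The RefSeq promoter table matched 5 of the 10 members, which were Cdx2, Cybrd1, Fabp6, Pdx1 and Slc10a2. Entries for Cdx1, Gata4, Gata6, Onecut2 and Osr2 were not used here. The intervals shown are chr5:147269847-147269958 on the plus strand for Pdx1, chr8:5105352-5105537 on the minus strand for Slc10a2 and chr11:43601563-43601812 on the minus strand for Fabp6.
Pdx1: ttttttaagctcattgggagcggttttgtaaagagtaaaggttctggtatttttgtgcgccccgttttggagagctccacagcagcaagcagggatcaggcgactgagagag
Slc10a2: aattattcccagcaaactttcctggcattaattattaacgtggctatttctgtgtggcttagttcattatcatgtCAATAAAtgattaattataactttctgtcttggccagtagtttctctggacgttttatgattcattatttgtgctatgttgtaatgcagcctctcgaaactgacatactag
Fabp6: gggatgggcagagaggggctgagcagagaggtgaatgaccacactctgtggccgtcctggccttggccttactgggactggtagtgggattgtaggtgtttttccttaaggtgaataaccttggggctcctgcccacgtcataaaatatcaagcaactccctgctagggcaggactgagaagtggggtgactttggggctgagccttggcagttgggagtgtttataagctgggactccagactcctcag

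On either strand, the CDX-type motif TTTATNG, where N is any base, had 3 matches in the 250 bases before the RefSeq start of Slc10a2 and none in those of Pdx1, Fabp6, Cdx2 or Cybrd1. Of the 3, 1 lies ahead of the GENCODE start of Slc10a2 and 2 lie inside its first GENCODE exon. Of 32851 promoters of this length, 9.81% held at least 1 match. The GATA-type motif AGATAA, found in 9.99% of promoters, and the HNF4-type motif CAAAGNNCA, found in 5.49%, had no match in any of the 5, and no matches overlapped. Over the full 250 bases, including those not shown, Slc10a2 was 34.4% G and C. This compares with 54.8% for Pdx1 and for Fabp6 and a median of 52.4% over all promoters. A match describes letters only, and TTTATNG is itself made mainly of A and T.

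Other markers of the 2 ends came from lists of genes that are not members, chosen with earlier results of these data known. Among 10 further distal markers, 7 were listed higher in PTBP1_KO, against 8455 of all 15460 tested genes. The median log2((PTBP1_KO + 1)/(WT + 1)) of the distal markers was 0.17, against 0.02 over all tested genes. None was called by Cuffdiff at q below 0.05, and 2 had an unadjusted p below 0.05 in the authors' deposited table. Mep1a, a brush-border metalloprotease, stood at 23.6 FPKM in WT against 34.3 in PTBP1_KO, with q = 0.0740 in the authors' deposited table. Amn, which with Cubn forms the ileal receptor for vitamin B12, stood at 33.5 FPKM in WT against 26.3 in PTBP1_KO, at an unadjusted p of 0.0358 in the authors' deposited table. Clec2h was the most abundant, at 281 FPKM in WT against 317 in PTBP1_KO. The distal list therefore did not move as one, since the vitamin B12 receptor genes were listed lower.

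The bile acid genes that act with Slc10a2 and Fabp6 were read along the route of the molecule. Of these, Slc51a, Slc51b, Nr1h4, Fgf15 and Nr0b2 are also among the distal markers above, so the lists overlap and are not separate observations. Slc51a and Slc51b, the subunits of the basolateral exporter, had 80.5 and 139 FPKM in WT and 101 and 164 FPKM in PTBP1_KO. Nr1h4, the nuclear receptor that senses bile acids, had 30.1 FPKM in WT against 33.9 in PTBP1_KO. Its target Fgf15, the hormone that signals to the liver, had 3.24 FPKM in WT against 3.99 in PTBP1_KO. Vdr, a nuclear receptor for vitamin D that also binds a bile acid, had 97.1 FPKM in WT against 81.2 in PTBP1_KO. Abcc2, Abcc3, Fgfr4, Nr1i2, Rxra and Nr0b2 were also listed lower. In PTBP1_KO, Abcc2 stood at 89.3% and Abcc3 at 87.3% of the WT level. Fgfr4 had 3.32 FPKM in WT against 2.89 in PTBP1_KO, and Nr0b2 had 0.373 against 0.369. Of the 11 tested genes of this list, 4 were listed higher and 7 lower, with a median of -0.00 (-0.00399), and Cuffdiff called none, with none at an unadjusted p below 0.05.

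Proximal markers showed no shared direction. Among 15 tested genes 8 were listed higher and 7 lower, with a median log2((PTBP1_KO + 1)/(WT + 1)) of 0.05. Cuffdiff called none at q below 0.05, and 2 had an unadjusted p below 0.05. Ada, adenosine deaminase of the duodenal epithelium, stood at 64.6 FPKM in WT against 93.9 in PTBP1_KO, with q = 0.143 in the authors' deposited table. Gkn3, a gastrokine of proximal crypts, stood at 3.95 FPKM in WT against 2.51 in PTBP1_KO, at an unadjusted p of 0.0400 in the authors' deposited table. Fabp1, a fatty acid binding protein of proximal enterocytes, was the most abundant at 2551 and 2470 FPKM. Pdx1, Onecut2 and Gata4 were thus listed lower while the proximal marker list was split.

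Iron genes that work with Cybrd1 were called in no case. Of 13 tested genes 9 were listed higher and 4 lower, with a median of 0.08, and none had an unadjusted p below 0.05 in the Cuffdiff table. Slc11a2, the iron importer, had 13.4 FPKM in WT against 13.3 in PTBP1_KO, and Slc40a1, the iron exporter, had 4.26 and 4.63 FPKM. Both genes are also among the proximal markers above. Heph, the oxidase that works with the exporter, had 28.6 and 31.4 FPKM, and Fth1, a ferritin subunit, had 1624 and 1645 FPKM. Epas1, a hypoxia factor that drives Cybrd1, had 2.72 FPKM in WT against 2.21 in PTBP1_KO.

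All 3 tested hormones made mainly at the distal end and all 4 tested proximal ones were listed higher in PTBP1_KO. Over all 15460 tested genes, 8455 were listed higher, and 0.388% were called higher at q below 0.05. Gcg, the proglucagon gene of ileal L cells, rose from 35.6 to 60.4 FPKM in PTBP1_KO, with a log2 fold change of 0.76 and q = 0.0125 in the authors' deposited table. Nts, neurotensin of the ileum, rose from 6.10 to 11.1 FPKM, with 0.87 and q = 0.0396 in the authors' deposited table. Pyy, peptide YY, had 11.5 and 16.6 FPKM and was not called. The 3 tested distal hormones had a median log2((PTBP1_KO + 1)/(WT + 1)) of 0.75, and the proximal ones had 0.12 with none called by Cuffdiff or at an unadjusted p below 0.05. Gip had 119 and 125 FPKM, Cck 38.5 and 44.4 FPKM, Sct 22.7 and 25.7 FPKM, and Ghrl 32.9 and 33.7 FPKM. Both hormone lists were chosen with earlier results of these data known, so nothing is read from their counts. The difference between these lists was not tested.

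**Figure D3:**
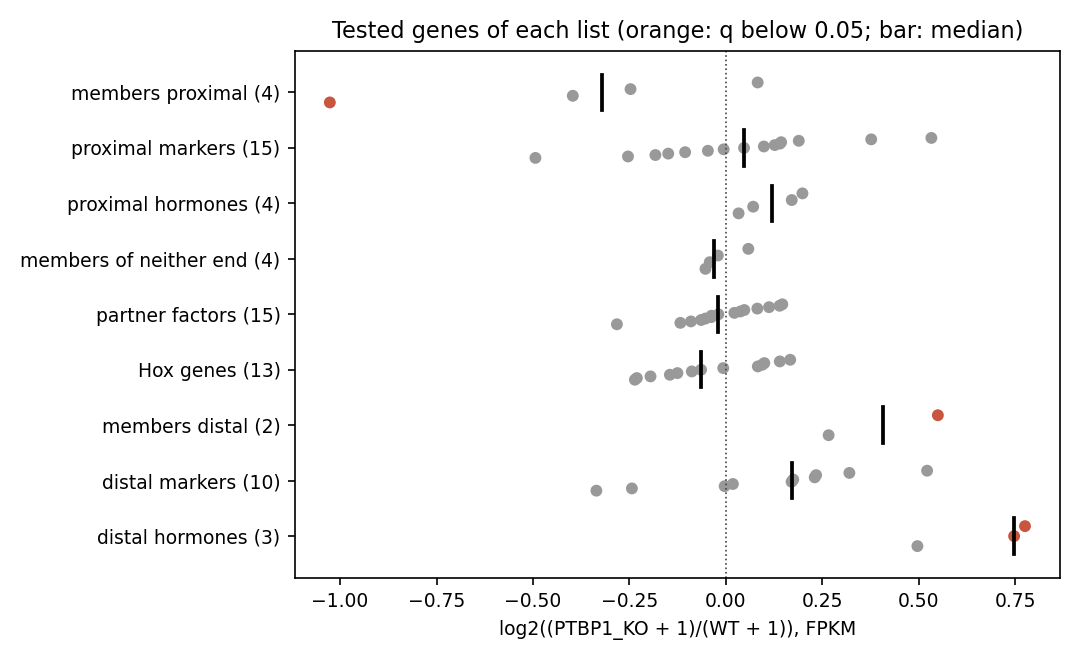
log2((PTBP1_KO + 1)/(WT + 1)) of FPKM for each tested gene of the members and of other lists, with the number tested in brackets, the median as a bar and genes at q below 0.05 in orange. The members and lists were chosen with earlier results of these data known. Distal hormones lie between 0.50 and 0.77 and 7 of 10 distal markers lie right of 0, while the proximal markers spread over both sides from -0.49 to 0.53.

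Factors listed by name as partners of the GATA and CDX members were split, with 7 of 15 tested genes listed higher and 8 lower. Whether they act at the same sites was not tested. Their median log2((PTBP1_KO + 1)/(WT + 1)) was -0.020. Cuffdiff called none, and 1 had an unadjusted p below 0.05, namely Sox9. Sox9, a factor of crypt progenitors, stood at 16.7 FPKM in WT against 13.6 in PTBP1_KO, at an unadjusted p of 0.0400 in the authors' deposited table. Hnf4a, the nuclear receptor that drives enterocyte genes, had 219 and 211 FPKM, and Foxa1, a forkhead factor, had 10.6 and 11.9 FPKM.

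Splicing offers a measure of the members that their choice did not use. The authors' splicing tables count reads that include or skip a region in 6 libraries arranged in 2 sets, and since the file headers leave the genotype of each set unnamed, no direction by genotype can be given. An event was called changed at an FDR below 0.05 and an absolute difference in inclusion level of at least 0.1 in the authors' deposited table, with 20 or more reads per library on average. The members had 8 events in 4 genes, Cdx2, Fabp6, Gata4 and Osr2, and 7 of these events reached 20 reads. By the authors' MATS results, 0 of the 7 were changed, and 0 of all 8 had an unadjusted p below 0.05, against 1.56% changed among all 53918 events with enough reads. Pdx1, Onecut2, Cybrd1, Gata6, Cdx1 and Slc10a2 had no listed event, so their splicing was not analysed here.

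Gata4 had the most even use of 2 alternative forms. Its event with enough reads is a pair of acceptor sites 3 bases apart on chromosome 14, 63204756 to 63204758, minus strand, at a coding exon of GENCODE M21. It was covered by a mean of 320 reads (255 to 376 per library). The longer form made up 34.7% of the summed reads after scaling to length, and the libraries ran from 31.3% to 38.9% with a median of 33.8%. Between the sets, the difference was 0.003 with p = 0.935 in the authors' deposited table. The junctions are shown because the forms differ by only these bases, which are in capitals, with 20 bases of the exons on each side.
Gata4 longer form: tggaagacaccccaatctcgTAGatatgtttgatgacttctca
Gata4 shorter form: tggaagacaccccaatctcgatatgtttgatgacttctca

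Osr2 had 3 events on chromosome 15. A retained intron of 956 bases (35300956 to 35301911) had an inclusion level of 11.3%, from summed reads after scaling to length. Its libraries ran from 10.3% to 13.5%, with a mean of 1305 reads. On this scale, used for all the events here, exons of 767 and 100 bases were included at 98.6% and 99.9%. Cdx2 included its 146-base coding exon (chromosome 5, 147303181 to 147303326) in 98.7%, with at least 2595 reads in every library. The Fabp6 exons of 90 and 176 bases were included at nearly 100% in all 6 libraries, and the larger had at least 10160 reads in each. The largest difference between the sets among these 7 events was -0.011, for the Osr2 intron, in the authors' deposited table.

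The event of the members that had too few reads is a pair of donor sites of Gata4, 84 bases apart (chromosome 14, 63270973 to 63271056, minus strand), in exon sequence outside the coding region in GENCODE M21. It had a mean of 10.7 reads, with 7 to 14 per library. The longer form ran from 32.1% to 100% across libraries, with a median of 70.4%. Its difference between the sets was the largest of the 8 events, -0.202 with p = 0.0573 and FDR = 0.390 in the authors' deposited table. The libraries of the sets overlapped, and leaving out each of the 6 libraries in turn moved the difference between -0.423 and -0.074.

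**Figure D4:**
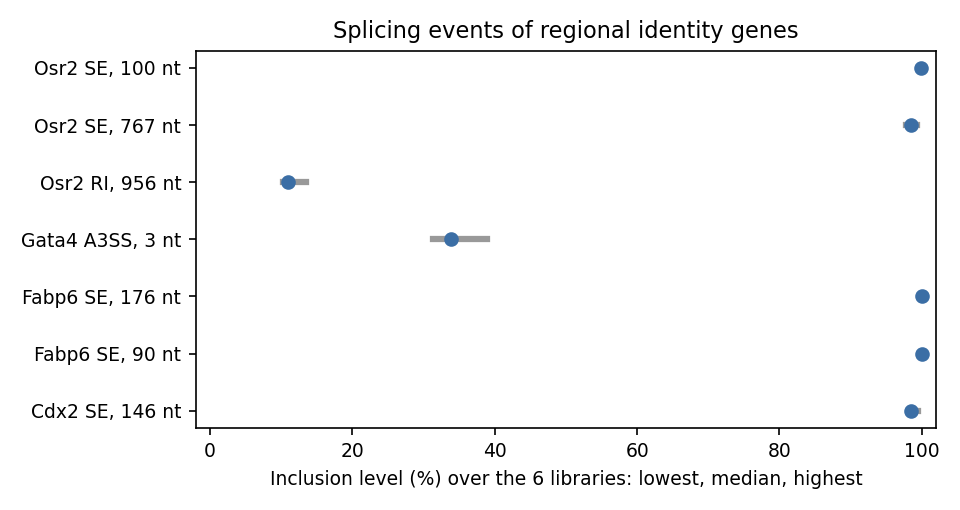
Inclusion level in percent of the 7 events of Cdx2, Fabp6, Gata4 and Osr2 with at least 20 reads on average, where the point is the median and the line runs from the lowest to the highest of the 6 libraries. The Gata4 acceptor pair (A3SS) runs from 31.3% to 38.9% and the Osr2 intron (RI) from 10.3% to 13.5%, and the skipped exons (SE) lie at 97.8% or more.

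Among the factors and regional markers outside the members, 130 events in 27 genes had enough reads, and 1 of them was changed. Over all 53918 events with enough reads, 1.56% were changed. The changed event is a 131-base exon of Tmprss15, the enteropeptidase gene of the duodenum (chromosome 16, 79087763 to 79087893, minus strand). The difference was 0.234 with FDR = 0.00578 in the authors' deposited table, but the mean was 27.3 reads and only 5 reads were counted in the lowest library. Set 1 held no skipping reads in its 3 libraries, and the libraries of set 2 included the exon at 1, 0.512 and 0.786. Without the library at 0.512 the difference was 0.107, and without the library of set 2 at 1 it was 0.351. With a minimum mean of 50 reads no event was changed. In Clec2h, exons of 157 and 78 bases had an FDR below 0.05 but differences under 0.1. By the authors' MATS results the difference was -0.051 for the longer (FDR = 2.9e-06, mean of 8117 reads). It was 0.014 for the shorter (FDR = 0.0458, mean of 1444 reads).

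Markers of tissues that a crypt preparation could also hold were read from the same table. Villus enterocyte markers (10 tested) and crypt stem cell markers (8 tested) had medians of -0.01 and -0.07, with none called by Cuffdiff and none at an unadjusted p below 0.05. Of the villus markers 4 were listed higher and 6 lower, and of the crypt markers 7 were listed lower and 1, Znrf3, higher. Summed levels over all 11 listed villus genes, with Sis, which has no valid test, were 5860 FPKM in WT against 6130 in PTBP1_KO. The crypt list summed to 797 and 745 FPKM. These sums follow the most abundant genes, since Apoa1 differed by 334 FPKM and Olfm4 by -39.8 FPKM. No shift between cell types is read from them. Villus enterocyte markers were thus abundant in both groups, led by Apoa1 at 2580 and 2914 FPKM, and the lowest ratio was that of Dpp4, at 67.3 and 54.6 FPKM. Olfm4 led the crypt list at 618 and 578 FPKM, Axin2 had the lowest ratio, at 43.9 and 36.4 FPKM, and Znrf3 the highest, at 3.004 and 3.005 FPKM. Stomach and Brunner gland markers summed to 0.684 FPKM in WT against 0.545 in PTBP1_KO, and Sox2, Gkn1, Gkn2 and Atp4b were at 0 in both. The 4 colon markers reported here summed to 0.242 and 0.171 FPKM, led by Aqp8, with Car1 at 0.

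Of 11 pancreatic acinar markers, 9 were below 1 FPKM in both groups, and Pnlip, Prss2 and Try4 were at 0. Clps, colipase, nevertheless rose from 57.6 to 101 FPKM, with a log2 fold change of 0.81 and q = 0.0125 in the authors' deposited table. The acinar list summed to 63.9 FPKM in WT against 107 in PTBP1_KO, nearly all from Clps, with Cela1 at 6.07 and 6.72 FPKM. PDX1 is also a pancreatic factor, and the part of these markers in the Pdx1 difference was not tested.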

How the data were processed

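Levels came from 1 table of FPKM values that the authors deposited, with 1 value per group; Trimmomatic 0.38, STAR 2.6.1d, Cufflinks and Cuffdiff on mm10 are named in the submitters' processing notes. The log2 fold changes, p-values and q-values are the authors' deposited ones. Depth is unknown from that table. The 5 splicing tables of the MATS layout hold read counts, FDR and inclusion level differences, per the file headers; 10 further columns, with an inclusion level for each library, were left out.

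Groups followed the sample titles. A gene was called at q below 0.05 with status OK. Ratios used a pseudocount of 1 FPKM, which understates the fold of low genes. Members and lists were chosen with earlier results of these data known. Named genes of each list are those called, the highest and lowest ratio among genes of at least 1 FPKM, and the most abundant; others were named after their values were seen. Osr2 was first listed as proximal and moved to neither end after values were seen. Inclusion was computed from reads divided by the effective lengths. Positions are 1-based, from GENCODE M21 (all 10 gene identifiers matched), and junction sequences come from its transcripts. Python 3.11.15, numpy 2.4.6, pandas 2.3.3 and matplotlib 3.10.9 were used, and the ratio script was tested on simulated data. Some genes of the partner factor and colon marker lists are not reported here and entered no count of those lists. Alternatives are listed in the closing section.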

Additional observations from a re-analysis of the deposited data

How the results depend on the processing

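Of 84 alternative values over 30 results, 75 stayed within 0.1 on the log2 scale, or within 1.5 times for counts, without a change of sign. With a pseudocount of 0.1 the log2 ratio was -1.73 for Pdx1, 0.27 for Cybrd1 and 0.65 for Slc10a2, all in the same direction and larger by construction, since a smaller constant is added. With q below 0.01 the count of called members was 0, because no q in the authors' deposited table lies under 0.0125; it was 3 at an unadjusted p below 0.05, which added Onecut2. The 1 median that turned sign was that of all tested genes, -0.0017 after centring, which removes 0.018 by construction. With a pseudocount of 0.1 the median was -0.40 for colon markers, from 1 tested gene, and -0.28 for stomach and Brunner gland markers. The changed splicing events of partner factors and other regional markers numbered 0 with a mean of 50 reads and 2 with a difference of at least 0.05, against 1. The lower difference added the 157-base exon of Clec2h. Counting Osr2 as proximal, chosen after the data were seen, gave a proximal median of -0.25. Counts of changed splicing events stayed at 0 for the members under the alternatives of 10 or 50 reads, 1 read in every library, and differences of 0.05 or 0.2. No paired analysis was possible because the gene table holds 1 value per group and the splicing columns carry no replicate number. For the same table, levels without each replicate could not be had. Leaving out each of the 6 splicing libraries, added after the data were seen, gave 54 differences over 9 events with no test, and 47 moved by less than 0.1 in inclusion level; the others belong to Tmprss15 (0.107 to 0.351) and the Gata4 donor pair (-0.423 to -0.074). Depth is unknown for the gene table; Cybrd1 and Pdx1 were below 1 FPKM in 1 or both groups.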

Other observations

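Paralogs of the members, named after their values were seen, show which family members were present in this bulk RNA. Among GATA genes, Gata5 had 29.1 FPKM in WT against 29.9 in PTBP1_KO, next to Gata4 and Gata6, while Gata1, Gata2 and Gata3 were below 1 FPKM. Onecut1 and Cdx4 were listed at 0 in both groups, and Onecut3 had 0.168 and 0.141 FPKM, so Onecut2 supplied nearly all Onecut RNA. Osr1 had 0.0527 and 0.0433 FPKM, far below Osr2. Fabp2, the intestinal fatty acid binding protein, stood at 1318 FPKM in WT against 1033 in PTBP1_KO, at p = 0.0851 in the authors' deposited table, a direction opposite to that of Fabp6. Among bile acid transporter relatives, the liver gene Slc10a1 was listed at 0 in both groups, and Slc10a3 had 6.50 and 7.88 FPKM.

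Hox genes, which set position along the body axis, were low. Of 39 genes 13 were tested, 5 listed higher and 8 lower, with a median log2((PTBP1_KO + 1)/(WT + 1)) of -0.06, and Cuffdiff called none, with none at an unadjusted p below 0.05. Hoxb6 was the most abundant at 5.71 FPKM in WT against 5.15 in PTBP1_KO. Hoxb9 had 2.76 and 3.22 FPKM, Hoxb5 had 2.65 and 2.10 FPKM, and 11 genes were listed at 0 in both groups.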
